A study of Mus musculus with 2 samples.

Results

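Expression of 6 genes, 4 encoding serpins and 2 encoding complement components, was followed through the cell classes of neonatal limb tendons from wild-type and Tgfbr2;ScxCre mutant mice. The genes were Serpine2, Serping1, Serpinf1, Serpina3n, C3 and C4b, chosen by name out of 27998 genes in the count tables. They were chosen with earlier results of these data known, so counts set beside the share of all genes are a description. For each gene the transcript molecules, counted by unique molecular identifiers (UMIs), were added up within each cell class and divided by all UMIs of that class, and levels are given as UMIs per 1000000 UMIs of the class (CPM).

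The samples were tendons of 7-day-old (P7) pups, released enzymatically from fore- and hindlimbs and not sorted, and each condition was 1 library made from a pool of 2 pups. In the Tgfbr2;ScxCre mutant, the floxed Tgfbr2 gene, which encodes the TGFβ type II receptor, was removed by a Cre recombinase under the Scx promoter, so that the floxed allele was deleted in cells with a history of Scx expression. The study's genotype for this mutant, Tgfbr2 f/-;ScxCre, has a null second allele, which all cells of the pup carry, mural, endothelial and immune cells included. The control library carried the label wild-type in its title and genotype but "Het" in its description, and it is called wild-type here as labelled. Pups of both groups also carried the tendon reporter ScxGFP and the Cre reporter Ai14 Rosa26-tdTomato (RosaT), and Scx counts include transcripts of ScxGFP. The wild-type library held 2364 cells and 9451606 UMIs (median 3866.5 per cell), and the mutant library 2592 cells and 8250248 UMIs (median 2828), with 2 barcodes in common. With 1 library per condition there was no replicate, so the mouse, the library and the genotype cannot be told apart and no test between conditions was made. Intervals below are exact 95% intervals (Poisson for levels, binomial for shares, conditional for ratios) and cover counting error only.

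Serpins are a protein family in which most members trap a serine protease by irreversible complex formation. Serpine2, or protease nexin-1, inhibits thrombin, urokinase and plasmin at the cell surface and in the matrix. Serping1 is the C1 inhibitor, which blocks the proteases that start the classical and lectin pathways of complement. Serpinf1, or pigment epithelium-derived factor, has the serpin fold but no known protease to inhibit, and binds collagen. Serpina3n is a secreted serine protease inhibitor and an acute-phase protein. C4b and C3 are complement components cleaved in sequence after the pathway is triggered: C4 is cut by the C1 complex, and C3, the central component, is cut by the convertases that form downstream. The liver makes most circulating complement, but fibroblasts are a known local source.

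The 6 genes lie on 5 chromosomes of GRCm38, and all are protein coding in GENCODE M21. Serpine2 (ENSMUSG00000026249) spans chr1:79794197-79861180 on the minus strand with up to 9 exons, Serping1 (ENSMUSG00000023224) chr2:84765387-84775444 on the minus strand with 8, and Serpinf1 (ENSMUSG00000000753) chr11:75409769-75422701 on the minus strand with 8. Serpina3n (ENSMUSG00000021091) spans chr12:104406729-104414329 on the plus strand with 5 exons. C3 (ENSMUSG00000024164) spans chr17:57203970-57228136 and C4b (ENSMUSG00000073418) chr17:34728380-34743882, both on the minus strand with up to 41 exons. C4b has a near-identical neighbour, C4a, at chr17:34809092-34823464, which was not analysed here. Reads of the 2 copies could be split, lost or assigned to C4b in counting, so C4b levels are uncertain in that respect.

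RefSeq promoter sequence (GRCm38.p6) was at hand for 4 of the 6 genes, Serpine2, Serpinf1, Serpina3n and C3. The windows are the 250 bases before the annotated start, read on the strand of the gene. They were searched on both strands for a C/EBP motif (TTGCNNAA), an NF-kB motif (GGG, any pair of bases, then TTTCC) and a STAT motif (TTCNNNGAA), since factors of these families act in acute-phase responses. The windows of the 2 genes that were near 0 in wild-type cells and higher in mutant fibroblasts are shown first, then that of Serpinf1, which was at a similar level in fibroblasts of both libraries. Capitals mark a motif match.
Serpina3n, chr12:104406458-104406707, plus strand: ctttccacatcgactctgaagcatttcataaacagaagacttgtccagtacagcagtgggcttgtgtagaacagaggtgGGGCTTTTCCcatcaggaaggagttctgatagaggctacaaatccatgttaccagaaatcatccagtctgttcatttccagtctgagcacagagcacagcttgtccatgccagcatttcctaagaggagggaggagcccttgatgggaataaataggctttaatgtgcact
C3, chr17:57228137-57228386, minus strand: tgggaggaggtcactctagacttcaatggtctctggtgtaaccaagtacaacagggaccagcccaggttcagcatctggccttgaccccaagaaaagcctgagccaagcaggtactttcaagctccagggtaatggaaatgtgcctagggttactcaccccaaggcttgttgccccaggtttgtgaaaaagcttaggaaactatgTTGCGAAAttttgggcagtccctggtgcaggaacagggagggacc
Serpinf1, chr11:75422624-75422873, minus strand: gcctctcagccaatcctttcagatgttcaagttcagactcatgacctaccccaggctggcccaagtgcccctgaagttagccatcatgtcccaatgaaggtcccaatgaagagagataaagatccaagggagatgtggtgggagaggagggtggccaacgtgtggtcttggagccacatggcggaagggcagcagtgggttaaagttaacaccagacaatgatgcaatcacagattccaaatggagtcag
Serpina3n had an NF-kB match at positions -171 to -162 from the start, a motif found in 1.41% of 32851 promoter windows of this length. C3 had a C/EBP match at positions -45 to -38, a motif found in 9.56% of them. The STAT motif, found in 7.02%, had no match in the 4 windows, and Serpine2 and Serpinf1 had no match to any of the 3 motifs. The Serpine2 window was the richest of the 4 in G and C, at 78.8% against 46.4% for Serpina3n, 51.6% for Serpinf1 and 52% for C3. A match describes the sequence and does not show that a factor binds there.

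Cells were classed by their own counts. Haemoglobin-rich cells and cells that met a marker list, described below, were set apart first, whatever their Scx count. Of the others, Scx-high cells had 30 or more Scx UMIs per 10000 and numbered 1149 (wild-type library) and 217 (mutant library). Scx-low fibroblasts, with fewer Scx UMIs and 5 or more UMIs over Ly6a, Cd34, Dpt, Lum and Col3a1, numbered 717 and 1823. These names describe counts and not lineage. From RosaT tracing the study concluded that ScxGFP-negative cells in mutant tendons derived from tenocytes. It described the ScxGFP-positive cells there as newly recruited. Classes of the same name in the 2 libraries therefore need not hold the same cell population. Mural cells (153 and 82), endothelial cells (22 and 26) and immune cells (191 and 194) were classed by marker lists. Schwann or neural (1 and 56), muscle (5 and 37) and mixed cells (2 and 5) were too few in the wild-type library to compare and are not among the 5 classes counted below. Cells in which haemoglobin made up 50% or more of the UMIs (88 and 79) served as a measure of free RNA. This measure may be too low for other classes. Median Scx per 10000 was 1.43 in wild-type haemoglobin-rich cells and 5.13 in wild-type immune cells. All 6 tendon markers were highest in Scx-high cells of both libraries, and all 8 mural, 8 endothelial and 8 immune markers were highest in the class they define. Of 7 fibroblast markers, 7 were highest in Scx-low fibroblasts of the wild-type and 6 in those of the mutant library. The exception, Cd34, was at 1078 CPM in mutant endothelial cells and at 621 in mutant fibroblasts. Scx itself, 5 of the 7 fibroblast markers (Cd34 included) and the whole mural, endothelial and immune lists were used to class the cells. For these genes the order therefore follows largely from the rule. The other 5 tendon markers and the other 2 fibroblast markers, Pi16 and Mfap5, were not used. Summed over the list, fibroblast markers were at 747 CPM in wild-type Scx-high cells and at 7438 in mutant Scx-high cells, so the mutant Scx-high class carried more fibroblast transcripts. Near the boundaries, 60 wild-type and 51 mutant cells had 20 to 45 Scx UMIs per 10000. Tgfbr2 itself was at 30.4 CPM in wild-type and 48.6 in mutant Scx-high cells, and at 74.0 and 72.3 in fibroblasts. These 3′ counts need not cover the floxed part of the gene and do not check the genotype.

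The 6 genes fell into different patterns across the classes. Serpinf1 was abundant in every Scx-high and fibroblast population of both libraries. Serping1 was a fibroblast gene in both libraries and was also counted in mural cells. Serpine2 was highest in mural cells, lower in fibroblasts and near the limit of counting in wild-type Scx-high cells. Serpina3n, C3 and C4b were almost absent from the wild-type library, with 16, 7 and 41 UMIs over all cells, and reached 605, 220 and 590 UMIs in the mutant library, most of them in Scx-low fibroblasts.

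**Figure D1:**
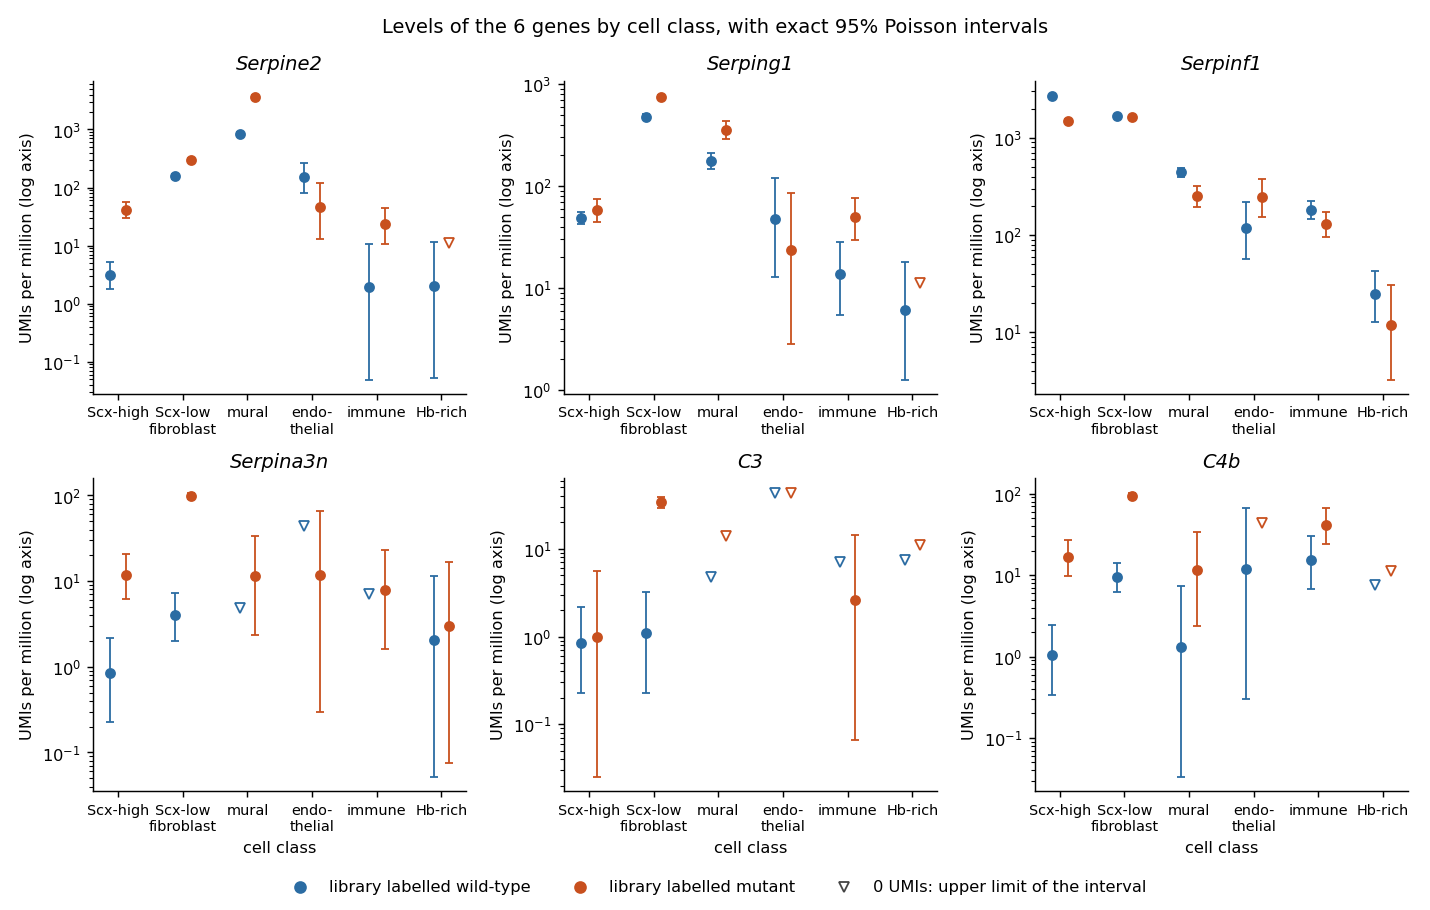
CPM (log axis) of each gene in 6 cell classes of the library labelled wild-type (blue) and the library labelled mutant (orange), with exact 95% Poisson intervals and open triangles at the upper limit where no UMI was counted. Serpina3n, C3 and C4b have their highest levels in mutant Scx-low fibroblasts, at 99.3, 34.0 and 94.6, and Serpine2 is highest in mural cells.

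Serpine2, the thrombin and urokinase inhibitor, was highest in mural cells of both libraries. In the wild-type library it had 634 UMIs in mural cells (830 CPM, 767 to 898), 425 in fibroblasts (156, 142 to 172), 13 in endothelial cells (154, 81.8 to 263), 15 in Scx-high cells (3.14 CPM, 1.76 to 5.18) and 1 in immune cells. Fibroblasts and endothelial cells, neighbours in that order, did not differ beyond counting error, nor did Scx-high and immune cells. Its mutant counts were 952 UMIs in mural cells (3646 CPM, 3418 to 3885), 1734 in fibroblasts (304, 290 to 318), 42 in Scx-high cells (41.6, 30.01 to 56.3), 4 in endothelial cells (46.9, 12.8 to 120) and 9 in immune cells (23.4, 10.7 to 44.5). Mural cells were again on top, and the 3 lowest classes had overlapping intervals. The 56 mutant Schwann or neural cells had 70 UMIs (433 CPM, 338 to 547), a level between those of mural cells and fibroblasts. The mutant over wild-type ratio was 4.39 (3.97 to 4.86) in mural cells, 1.94 (1.75 to 2.16) in fibroblasts and 13.3 (7.20 to 25.7) in Scx-high cells. In endothelial cells the ratio went the other way, at 0.31 (0.07 to 0.99), from 22 and 26 cells in which 1 wild-type cell held 6 of the 13 UMIs.

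The share of cells with a Serpine2 UMI moved with these levels. It was 20.9% (18.0 to 24.1) of wild-type and 34.0% (31.8 to 36.2) of mutant fibroblasts, and 77.8% and 95.1% of mural cells. With all cells thinned to the depth of 1500 UMIs, the shares were 13.5% and 25.5% in fibroblasts and 54.9% and 81.3% in mural cells. Among haemoglobin-rich cells, 1.14% (median 5682 UMIs) of the wild-type and 0 of 79 (median 4451 UMIs) of the mutant library had a UMI, and 0 of 79 allows a share of up to 3.80% when 0 is bounded by 3 cells (4.56% by the exact interval). The share in wild-type Scx-high cells, 1.04% at a median of 4280 UMIs, was no higher than that background, while the mutant Scx-high share of 9.68% (6.09 to 14.4) was above it. After thinning the mutant share was 5.03% (2.44 to 9.05), an interval that reaches the limit for 0 of 71 haemoglobin-rich cells (5.06%). As a level, mutant Scx-high cells lay above haemoglobin-rich cells, where 0 UMIs gave an upper limit of 11.1 CPM. Thinning left out 41 and 165 fibroblasts, 85 and 18 Scx-high cells and 9 and 7 mural cells with fewer UMIs.

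Serpine2 transcripts were concentrated in a small set of wild-type fibroblasts. The 1% of cells with the most UMIs held 32.5% of the wild-type and 16.6% of the mutant fibroblast count, and the top wild-type cell alone had 40 UMIs. Without these cells the fibroblast ratio was 2.40, against 1.94 with them. The mural class also held sub-populations that differed between libraries. In mural cells without a Myh11 UMI (62 and 41 cells), Serpine2 was at 1242 and 6059 CPM, a ratio of 4.88 (4.27 to 5.58), and in those with Myh11, a smooth muscle myosin (91 and 41 cells), at 623 and 1443, a ratio of 2.32 (1.93 to 2.78). Mural cells without Myh11 in the wild-type library carried tendon transcripts, with Scx at 9749 and Col1a1 at 24962 CPM, against 1228 and 3475 in the mutant library. The part of these transcripts in the mural ratio was not tested.

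Serping1, the C1 inhibitor, was highest in fibroblasts of both libraries. It had 1306 UMIs in wild-type fibroblasts (481 CPM, 455 to 507), 135 in mural cells (177, 148 to 209), 233 in Scx-high cells (48.8, 42.7 to 55.5), 4 in endothelial cells (47.3, 12.9 to 121) and 7 in immune cells (13.6, 5.47 to 28.0). The endothelial interval overlapped those of Scx-high and immune cells, and the other classes were apart. The mutant counts were 4320 in fibroblasts (756 CPM, 734 to 779), 93 in mural cells (356, 287 to 436), 59 in Scx-high cells (58.5, 44.5 to 75.4), 19 in immune cells (49.5, 29.8 to 77.3) and 2 in endothelial cells. The order of the 3 highest classes was the same as in the wild-type library, and the classes below mural cells overlapped. The mutant over wild-type ratio was 1.57 (1.48 to 1.68) in fibroblasts, 2.01 (1.53 to 2.64) in mural cells, 3.64 (1.46 to 10.2) in immune cells and 1.199 (0.88 to 1.60) in Scx-high cells, where the libraries did not differ beyond counting error. A UMI was found in 61.4% of wild-type and 68.0% of mutant fibroblasts, or 46.0% and 55.5% after thinning. The corresponding share was 3.41% (3 of 88) of wild-type haemoglobin-rich cells and 0 of 79 in the mutant library.

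Serpinf1, the collagen-binding non-inhibitory serpin, was abundant in both tendon populations and was the only one of the 6 that was higher in Scx-high cells than in fibroblasts of the wild-type library beyond counting error. It had 12852 UMIs in wild-type Scx-high cells (2692 CPM, 2645 to 2739) and 4549 in fibroblasts (1674, 1626 to 1723), and in the mutant library 1506 in Scx-high cells (1493, 1419 to 1570) and 9428 in fibroblasts (1651, 1618 to 1685). Fibroblasts of the libraries did not differ beyond counting error, with a ratio of 0.99 (0.95 to 1.02), whereas mutant Scx-high cells were 1.80-fold lower than wild-type ones (1.71 to 1.90). Within the wild-type library fibroblasts were 1.61-fold lower than Scx-high cells (1.55 to 1.66). For mutant cells the fibroblast over Scx-high ratio was 1.11 (1.05 to 1.17), and 0.999 when ratios were centred on the median gene. A UMI was present in 97.2% of wild-type and 91.2% of mutant Scx-high cells, and in 93.2% and 92.5% of fibroblasts.

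Outside these classes Serpinf1 was lower, and in mural cells it was lower in the library with less of the tendon marker list. It was at 440 (394 to 490) CPM in wild-type and 253 (195 to 322) in mutant mural cells, at 183 (148 to 223) and 130 (96.6 to 172) in immune cells, and at 118 (56.7 to 217) and 246 (152 to 376) in endothelial cells. The libraries overlapped in immune and endothelial cells. The tendon marker list was at 5673 and 1279 CPM in wild-type and mutant mural cells, at 2471 and 352 in immune cells and at 792 and 188 in endothelial cells. The part of carried-over tendon RNA in these levels was not tested. Haemoglobin-rich cells had a Serpinf1 UMI in 10.2% of the wild-type and 5.06% of the mutant library. The shares of 19.4% and 13.4% in immune cells thus stand over a measurable background, which haemoglobin-rich cells may understate.

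Serpina3n, the acute-phase serpin, was close to 0 in wild-type cells. It had 11 UMIs in wild-type fibroblasts (4.05 CPM, 2.02 to 7.24), 4 in Scx-high cells (0.84, 0.23 to 2.15) and none in mural, endothelial or immune cells. Mutant counts were 567 UMIs in fibroblasts (99.3 CPM, 91.3 to 108), 12 in Scx-high cells (11.9, 6.15 to 20.8), 3 each in mural and immune cells and 1 in endothelial cells. Mutant fibroblasts thus held most of the transcripts, and no interval of the other 4 classes touched theirs, while the 56 Schwann or neural cells, with 9 UMIs (55.7 CPM, 25.5 to 106), overlapped them. The ratio was 24.5 (13.6 to 49.4) in fibroblasts and 14.2 (4.30 to 60.4) in Scx-high cells, the latter from 4 and 12 UMIs. The mutant Scx-high level overlapped that of mutant haemoglobin-rich cells (3.004 CPM, 0.08 to 16.7), so it is not apart from the background of free RNA. A UMI was present in 0.98% of wild-type and 19.4% (17.6 to 21.3) of mutant fibroblasts, or 0.74% and 11.9% after thinning, against 1 of 88 and 1 of 79 haemoglobin-rich cells.

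C3, the central complement component, was counted in 3 of the 5 classes of the mutant library, fewer than any other of the 6 genes. It had 3 UMIs in wild-type fibroblasts (1.10 CPM, 0.23 to 3.23), 4 in wild-type Scx-high cells (0.84, 0.23 to 2.15) and none in wild-type mural, endothelial or immune cells. The mutant library gave 194 UMIs in fibroblasts (34.0 CPM, 29.4 to 39.1), 1 in Scx-high cells, 1 in immune cells and none in mural or endothelial cells. The fibroblast ratio of 30.8 rested on 3 wild-type UMIs, and its interval ran from 10.4 to 151. It was 59.4 when CPM were averaged over cells. In Scx-high cells, with 4 and 1 UMIs, the ratio of 1.18 (0.02 to 11.96) gave no direction at this depth. C3 was found in 0.28% of wild-type and 6.80% (5.69 to 8.06) of mutant fibroblasts, or 0.15% and 4.16% after thinning. None of the 88 and 79 haemoglobin-rich cells had a C3 UMI, which allows shares of up to 3.41% and 3.80% with 0 bounded by 3 cells (4.11% and 4.56% by the exact interval).

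C4b, the component cut ahead of C3, was counted in more classes. In the wild-type library it had 26 UMIs in fibroblasts (9.57 CPM, 6.25 to 14.0), 8 in immune cells (15.5, 6.71 to 30.6), 5 in Scx-high cells (1.05, 0.34 to 2.44) and 1 each in mural and endothelial cells. Fibroblasts and immune cells did not differ beyond counting error there, with an immune over fibroblast ratio of 1.62 (0.64 to 3.69). Mutant cells gave 540 UMIs in fibroblasts (94.6 CPM, 86.7 to 103), 16 in immune cells (41.7, 23.8 to 67.7), 17 in Scx-high cells (16.9, 9.82 to 27.0), 3 in mural cells and none in endothelial cells. The mutant Scx-high interval overlapped that of haemoglobin-rich cells, where 0 UMIs allow up to 11.1 CPM. Mutant fibroblasts stood above mutant immune cells by 2.27-fold (1.38 to 3.999). The mutant over wild-type ratio was 9.88 (6.67 to 15.3) in fibroblasts, 16.1 (5.70 to 55.8) in Scx-high cells and 2.68 (1.08 to 7.24) in immune cells. A C4b UMI was present in 2.93% of wild-type and 19.5% (17.7 to 21.4) of mutant fibroblasts, or 1.18% and 11.5% after thinning, and in none of the haemoglobin-rich cells.

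Counted over the 6 genes, 3 were at least 2-fold higher in mutant than in wild-type fibroblasts (Serpina3n, C3 and C4b), where 5.6% of 11080 genes with 20 or more UMIs were. In Scx-high cells 3 of the 6 were at least 2-fold higher in the mutant (Serpine2, Serpina3n and C4b), against 12.5% of 9680 genes. The share covers genes with 20 or more UMIs, which 4 of the 6 had. Of these 4, 2 were at least 2-fold higher, Serpine2 and C4b. Mutant Scx-high levels of Serpina3n and C4b overlapped those of haemoglobin-rich cells. None of the 6 was at least 2-fold lower in either class, where 5.71% (fibroblasts) and 8.23% (Scx-high cells) of the genes were. The median log2 ratio of the 6 genes was 2.13 in fibroblasts and 1.99 in Scx-high cells, beside -0.03 and 0.24 for all genes counted. The Scx-high median of 0.24 means that a typical gene was slightly higher in mutant Scx-high cells, and relative to it the Serpinf1 ratio there was 0.47 and that of Serping1 was 1.01. Over all cells 5 of the 6 were at least 2-fold higher in the mutant library, against 8.1% of 12671 genes, and Serpinf1 was 1.39-fold lower (1.36 to 1.42). These whole-library ratios combine levels within classes with the different class sizes, since fibroblasts made up 30.3% of wild-type and 70.3% of mutant cells. In mural cells 4 of the 6 were at least 2-fold higher in the mutant, against 8.35% of 5723 genes, but 3 of the 6 had fewer than 20 UMIs there and the count includes Serpina3n with 0 and 3 UMIs and C4b with 1 and 3. In immune cells 5 of the 6 were, against 6.52% of 5154 genes, again with 3 of the 6 under 20 UMIs and with no wild-type UMI of Serpina3n and C3.

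**Figure D2:**
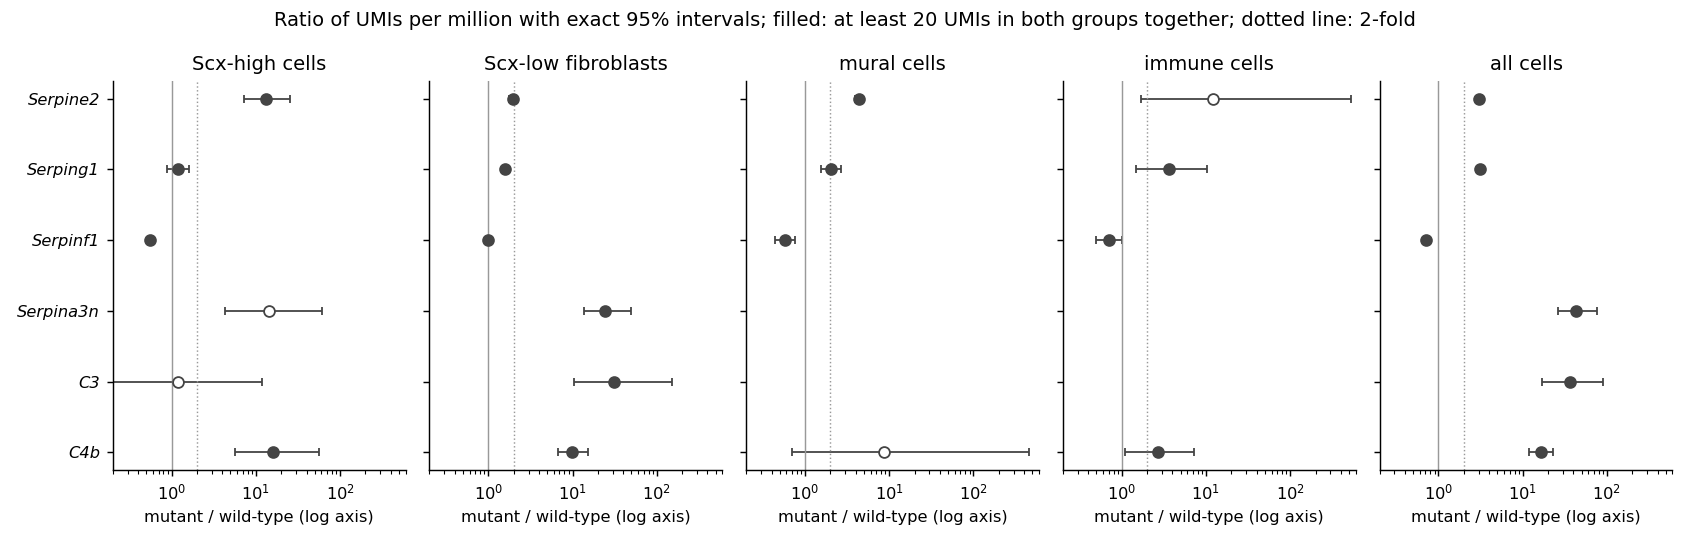
Mutant over wild-type ratio of CPM (log axis) for each gene in 4 cell classes and over all cells, with exact 95% intervals. Filled points had at least 20 UMIs in both groups together, the solid line marks no difference and the dotted line 2-fold, and no point is drawn where a library had no UMI. In fibroblasts Serpina3n, C3 and C4b lie at 24.5, 30.8 and 9.88 while Serpinf1 lies at 0.99.

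Within each library, fibroblasts were compared with Scx-high cells, which does not involve the other library. In the wild-type library 4 of the 6 genes were at least 2-fold higher in fibroblasts (Serpine2, Serping1, Serpina3n and C4b), against 21% of 10566 genes with 20 or more UMIs. Serpina3n and C3 were under 20 UMIs there, and 3 of the 4 genes above that number were 2-fold higher. In the mutant library 5 of the 6 were higher, all but Serpinf1, against 15% of 10604 genes. The median log2 ratio of the 6 was 2.73 and 2.96, beside 0.45 and 0.15 for all genes. Serpine2 was 49.8-fold (29.8 to 89.7) higher in wild-type fibroblasts than in Scx-high cells and 7.29-fold (5.37 to 10.2) in the mutant library. The wild-type value was 126 after thinning, and at least 168 without the 1% of cells with the most UMIs, which held all 15 Scx-high UMIs. For Serping1 the ratios were 9.85 (8.56 to 11.4) and 12.9 (10.01 to 17.0), with overlapping intervals. C4b gave 9.14 (3.45 to 30.5) and 5.61 (3.47 to 9.70), and Serpina3n 4.83 (1.43 to 20.8) and 8.35 (4.74 to 16.2). For C3 the mutant ratio of 34.3 (6.08 to 1360) rested on 1 Scx-high UMI, and after thinning, which left none there, fibroblasts were at least 3.68-fold higher, against 3 UMIs.

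The genes also varied with Scx itself. Fibroblasts and Scx-high cells were pooled and divided by Scx UMIs per 10000 into 0, up to 10, 10 to 30, 30 to 100, 100 to 300 and 300 or more. In the wild-type library Serpine2 was at 261, 127, 57.6, 13.2, 2.81 and 0.68 CPM in these bins, lower at each step. Its mutant levels were 332, 252, 97.9, 49.7, 67.2 and 11.1. The mutant level was above the wild-type one in each bin. As a ratio the gap was widest at 100 to 300, where the intervals were 1.21 to 5.54 in 685 wild-type cells and 42.1 to 102 in 74 mutant cells, and the intervals overlapped at 10 to 30, at 30 to 100 and at 300 or more. Serping1 had the same direction, from 586 to 44.1 in wild-type and from 870 to 13.9 in mutant cells.

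Serpinf1 ran the other way in the wild-type library, with higher levels from 30 Scx UMIs upward than below. It was at 1832, 1563, 1963, 2282, 2870 and 2475 CPM from the lowest to the highest wild-type bin, and at 1679, 1547, 1686, 1758, 1625 and 1135 in the mutant bins. The libraries overlapped between 0 and 30 in cells with a Scx UMI and stood furthest apart in the highest bin, where the mutant interval ended at 1251 and the wild-type one began at 2395. Serpina3n, C3 and C4b in the mutant library were highest in cells without a Scx UMI, at 118, 41.1 and 109, were at 52.3, 14.7 and 58.8 at up to 10, and had no UMI in the 63 cells with 300 or more, where 3 UMIs would be 8.35 CPM.

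**Figure D3:**
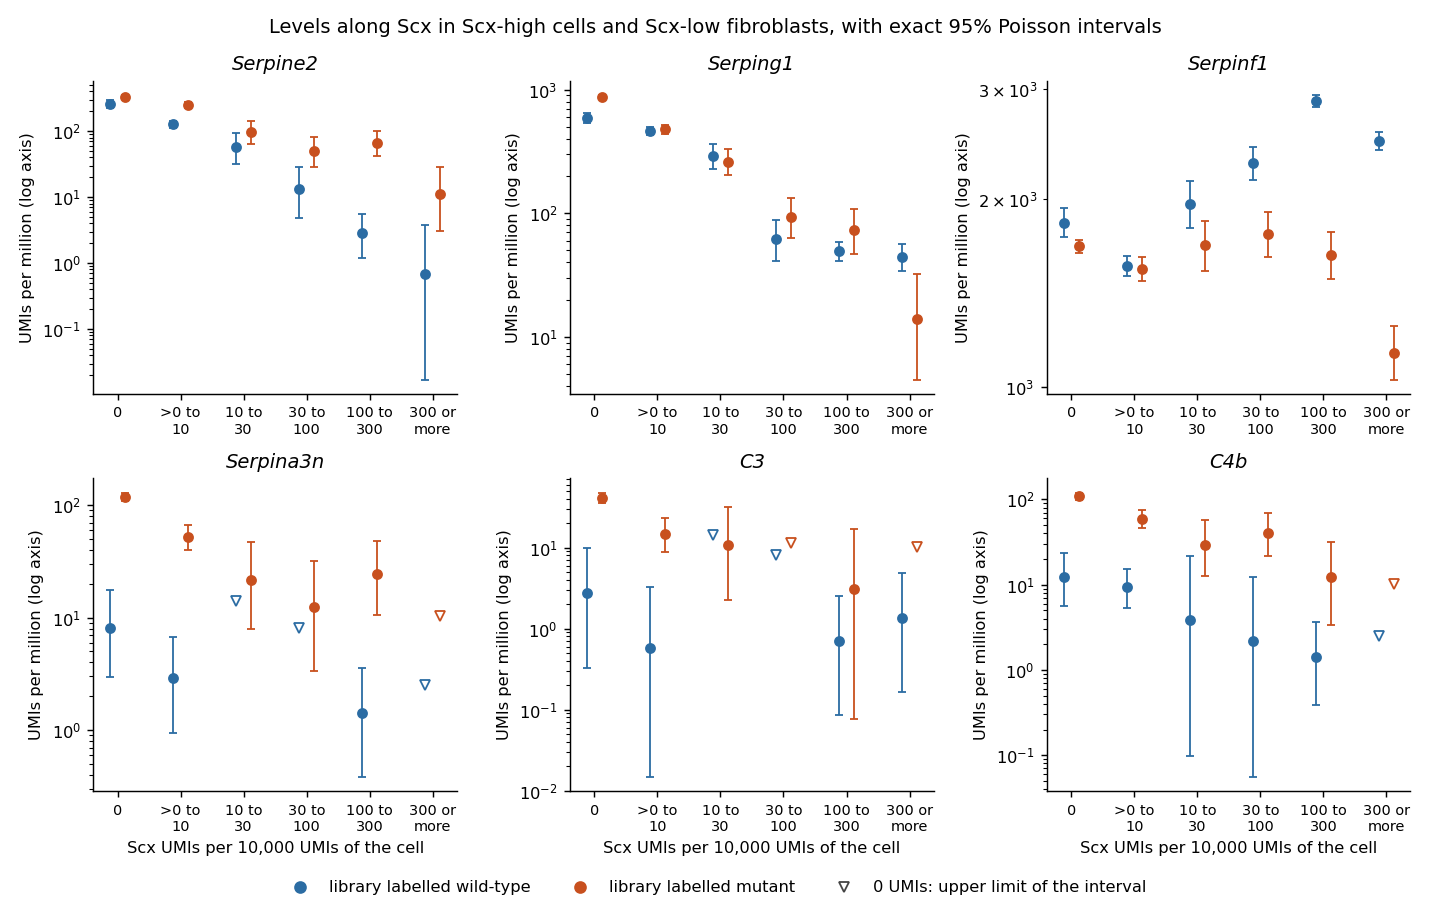
CPM (log axis) of each gene in Scx-high cells and Scx-low fibroblasts binned by Scx UMIs per 10000 UMIs of the cell, for the library labelled wild-type (blue) and the library labelled mutant (orange), with exact 95% Poisson intervals. Serpine2 is lower in the top Scx bin, at 0.68 and 11.1, than in cells without Scx, at 261 and 332, while Serpinf1 separates between libraries at high Scx, at 2475 and 1135 in the top bin.

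The mutant Scx-high class was mixed, and its cells were therefore also divided by their UMIs of the 5 fibroblast genes. In cells with under 5 of these UMIs (973 wild-type and 40 mutant cells), Serpine2 had 9 and 10 UMIs, or 2.30 and 91.1 CPM, a ratio of 39.7 (14.5 to 110). In cells with 5 or more (176 and 177 cells), it had 6 and 32 UMIs, or 7.03 and 35.6 CPM, a ratio of 5.06 (2.09 to 14.8). Serpine2 was thus higher in the mutant library in both groups of Scx-high cells. In the first group the 10 mutant UMIs lay in 6 cells. The wild-type share there, 0.92%, was no higher than in wild-type haemoglobin-rich cells (1.14%). Median UMIs in that group were 4203 (wild-type) and 2677.5 (mutant), so a cut in UMIs need not select like cells. The part of fibroblast transcripts in these ratios was not tested. Serpinf1 was lower in the mutant library in both groups, with ratios of 0.56 (0.48 to 0.65) and 0.67 (0.63 to 0.72). C4b, with 3 and 15 UMIs in cells with 5 or more fibroblast UMIs, had a ratio of 4.75 (1.34 to 25.6), and with 2 and 2 in the others, from 973 and 40 cells, it was 35.7 (2.59 to 493). For Serpina3n, with 4 and 9 UMIs in cells with 5 or more, the ratio was 2.14 (0.60 to 9.49), an interval that includes 1. The others had 0 UMIs in 973 wild-type cells (up to 0.94 CPM) and 3 in 40 mutant cells (27.3 CPM, 5.64 to 79.9), where the intervals did not overlap. Serping1 was within counting error in both groups, at 1.31 (0.47 to 2.91) and 0.73 (0.50 to 1.06).

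The fibroblasts are a heterogeneous class, and they were divided into Pi16-positive cells (308 wild-type and 358 mutant), Pi16-negative cells with 3 or more Tnmd UMIs (126 and 420) and the remainder (283 and 1045). Pi16 marks a population of adventitial fibroblasts, and Tnmd encodes tenomodulin, a tendon membrane protein. Serpina3n had 8 and 143 UMIs in Pi16-positive cells (ratio 17.9, 8.83 to 42.2), 0 and 138 in Tnmd-positive cells (at least 13.5-fold higher, against 3 UMIs) and 3 and 286 in the remainder (33.2, 11.3 to 162). C4b had 16 and 156 UMIs (9.75, 5.82 to 17.5), 0 and 111 (at least 10.9-fold higher) and 10 and 273 (9.52, 5.10 to 20.1). C3 had 2 and 39, 1 and 35, and 0 and 120 UMIs, the last at least 13.9-fold higher. All 3 genes were therefore higher in the mutant library in each of the 3 subsets, at levels between 92.8 and 115 CPM for Serpina3n, 74.7 and 126 for C4b and 23.5 and 40.2 for C3.

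The other serpins depended on the subset. Serpine2 was 3.15-fold (2.57 to 3.88) higher in mutant Pi16-positive cells, 2.83-fold (1.84 to 4.55) in Tnmd-positive cells and 1.41-fold (1.24 to 1.62) in the remainder, where its wild-type level was already 264 CPM. Serping1 gave 1.31 (1.196 to 1.44), 2.17 (1.79 to 2.65) and 2.07 (1.87 to 2.31). Serpinf1 was lower in the first and second subset, at 0.84 (0.79 to 0.90) and 0.82 (0.76 to 0.88), and higher in the remainder at 1.21 (1.14 to 1.28), so its class ratio near 1 was made of ratios on both sides of 1. Among fibroblasts without any Scx UMI (224 and 1426 cells), Serpine2 differed by 1.28 (1.10 to 1.49). Serpina3n, C3 and C4b gave 14.5 (6.61 to 39.7), 15.1 (4.13 to 126) and 8.94 (4.67 to 19.7), from 6, 2 and 9 wild-type UMIs. As with the low Scx bins, these cells need not match between libraries.

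**Figure D4:**
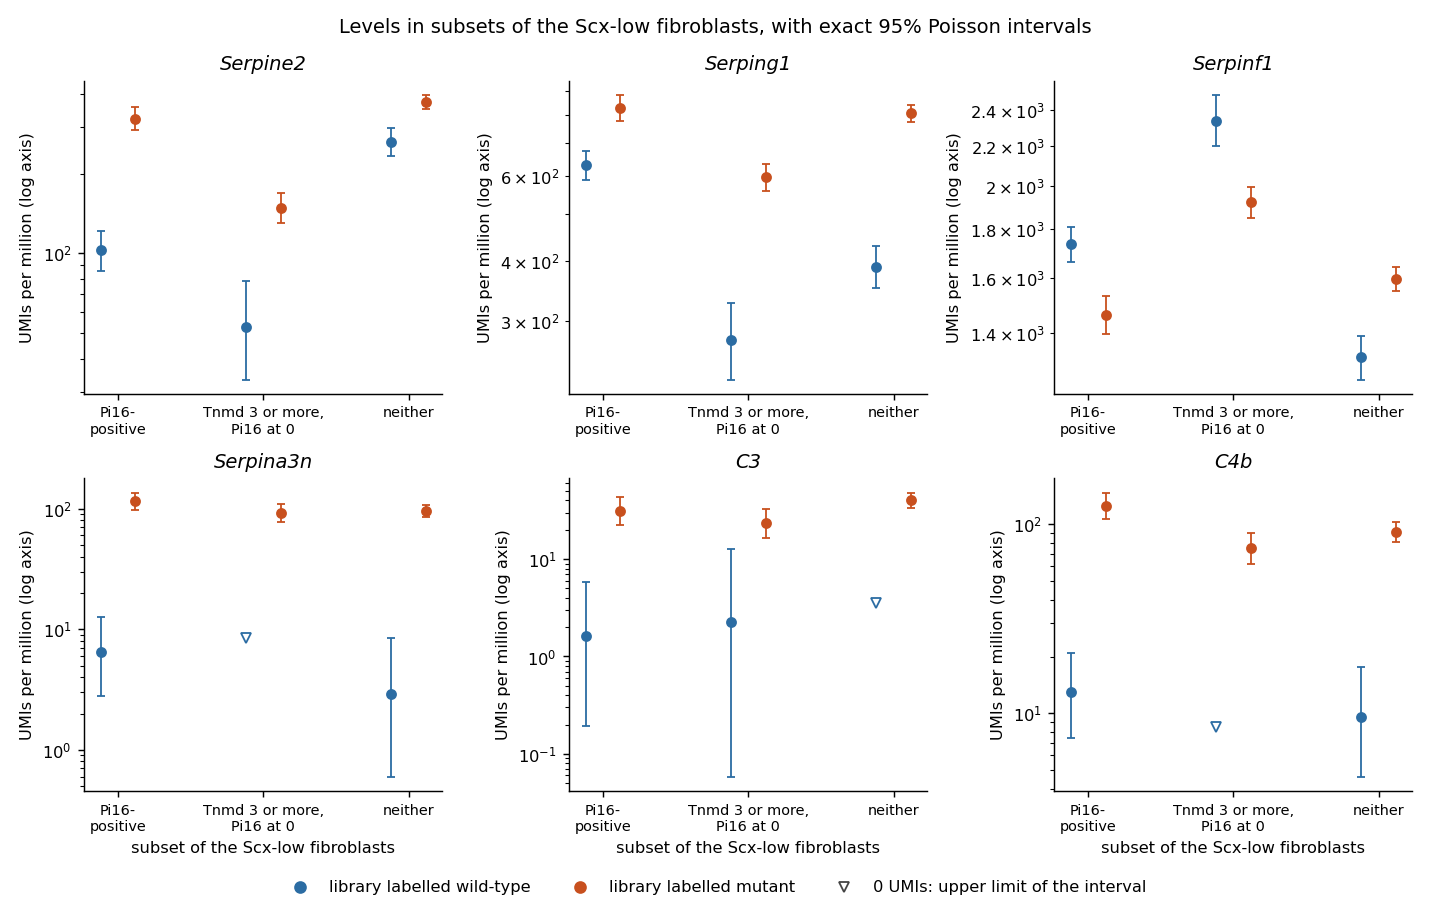
CPM (log axis) of each gene in 3 subsets of the Scx-low fibroblasts for the library labelled wild-type (blue) and the library labelled mutant (orange), with exact 95% Poisson intervals and open triangles at the upper limit where no UMI was counted. Serpina3n, C3 and C4b are higher in the mutant library in each subset, while Serpinf1 is lower in 2 subsets and higher in the third.

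Within mutant fibroblasts, Serpina3n, C3 and C4b were each higher in cells with a UMI of another of them than in cells without it. C3 was at 90.6 CPM in the 354 cells with a Serpina3n UMI and at 19.6 in the 1469 without (ratio 4.63, 3.46 to 6.21). C4b was at 335 in the 124 cells with a C3 UMI and at 76.9 in the others (4.36, 3.55 to 5.32), and Serpina3n was at 368 and 79.5 in the same groups (4.63, 3.80 to 5.61). Serping1 was 2.15-fold (1.97 to 2.35) and Serpine2 1.69-fold (1.45 to 1.97) higher in cells with a C3 UMI, while Serpinf1 was within counting error (0.97, 0.89 to 1.05). Median UMIs were 2857 in cells with C3 and 2890 in those without, and 3229.5 and 2794 in cells with and without Serpina3n. Tnmd was lower in cells with C3, at 389 against 1099 CPM.

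Genes above a floor of cells were ranked by the ratio of their share in mutant fibroblasts with C3 over those without, highest first. The first 6 were Ccl7, Il33, Serpina3n, Srgn, Cfb and Plac8. Cells with 1500 or more UMIs were divided by C3 at full depth, and only the other genes were counted after thinning to 1500 UMIs. The divisions by Serpina3n and C4b below were made the same way. Ccl7, a monocyte chemokine, was present in 22.7% of the 110 cells with C3 and in 4.72% of the 1548 without. Il33, an alarmin cytokine, was present in 25.5% and 5.62%, and Cfb, complement factor B, in 26.4% and 6.27%. The most widespread of the 6 was Serpina3n, in 42.7% and 9.75%. Of cells with Serpina3n, 22.2% had Lcn2, the acute-phase lipocalin, against 5.57% of those without. Of the 328 cells with C4b, 11.9% had C3, against 2.26% of the 1330 without. These genes were ranked on the same cells and are a description.

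The likeness of patterns was also measured across classes, as Pearson's r over 10 points (5 classes in 2 libraries, log2 of CPM plus 10, 7010 genes with 200 or more UMIs). The points share libraries, and r has no test here. C3 had 194 of its 203 UMIs, and Cfd all of its 292, in mutant fibroblasts, where Serpina3n was also highest. The r values of C3 and Cfd therefore rest mainly on that point, and both passed the floor of 200 UMIs only through it. Serpina3n, C4b and Lcn2, with 567, 540 and 631 UMIs in mutant fibroblasts, also had 200 or more UMIs only through that point. The r values among these genes are therefore not independent of it. Among the 6 genes, Serpina3n and C3 were most alike (r = 0.89), followed by C3 and C4b (0.79), Serpine2 and Serping1 (0.73) and Serpina3n and C4b (0.72), and Serpinf1 reached at most 0.45 with any other. Of all genes, Gnb4, Mmp11 and Sept11 were closest to Serpine2 (0.97, 0.95 and 0.94), Gpc3, Bcap31 and Gfpt2 to Serping1 (0.96, 0.96 and 0.95), and Serf1, Dcn and Angptl1 to Serpinf1 (0.98, 0.98 and 0.97). Gfra1, Car3 and C3 were closest to Serpina3n (0.92, 0.90 and 0.89), Cfd, Car3 and Gfra1 to C3 (0.99, 0.97 and 0.95), and Emb, C1qbp and Lcn2 to C4b (0.89, 0.88 and 0.88).

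Cfd, the adipocyte protease adipsin, and Car3 are also adipocyte genes, so the fibroblasts were examined for a list of 8 adipocyte markers. Their summed level, an average over the class, was 27.6 CPM in wild-type and 333 in mutant fibroblasts. At least 1 such UMI was found in 55 of 717 and 165 of 1823 fibroblasts, and 5 or more in 1 and 15. The list was far higher in endothelial cells, at 9221 and 7326 CPM, and had a UMI in 33.3% and 32.9% of mural cells, so it does not single out adipocytes. In the mutant library 15 fibroblasts with 5 or more adipocyte UMIs held 23 of the 194 C3 UMIs. C3 was at 317 CPM (201 to 476) in these 15 cells and at 30.7 in mutant fibroblasts without an adipocyte UMI. In fibroblasts without any adipocyte UMI (662 and 1658 cells), the ratio was 25.4 (8.52 to 124) for C3, 24.0 (12.96 to 50.4) for Serpina3n and 9.47 (6.29 to 14.9) for C4b, close to the values over all fibroblasts. Cfd was not on the list, so cells with Cfd may remain among them. The part of adipocyte RNA in these ratios was not tested.

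The other genes of the complement system divided by role and by cell class. Of 17 recognition and protease genes, 11 had 20 or more UMIs in fibroblasts, of which 5 were at least 2-fold higher and 2 at least 2-fold lower in the mutant library (median log2 ratio 0.62), beside 5.6% and 5.71% of all genes with 20 or more UMIs. Cfb, which forms the alternative-pathway convertase with C3, was at 12.1 and 59.4 CPM (ratio 4.89, 3.41 to 7.22), and C1s1 and C1ra, the C1 proteases that Serping1 inhibits, were 2.49-fold (2.04 to 3.06) and 2.33-fold (1.87 to 2.93) higher. Cfd, the protease that activates factor B, had 0 UMIs in wild-type and 292 in mutant fibroblasts, and C1rb, a copy of C1ra that may share its reads, had 0 and 21. How the Cfd UMIs were spread over the fibroblasts was not examined, and 1 mutant cell outside the classes alone held 522. The lower ones were C1qa, with 12 and 11 UMIs, and Colec11, a collectin, with 16 and 5. The C1q genes were immune-cell genes in both libraries, at 3841 to 4940 CPM there, and reached at most 4.42 in fibroblasts. Among 12 regulators, 6 had 20 or more UMIs, with 4 higher and 1 lower. Clu, or clusterin, was at 85.0 and 248 CPM (2.92, 2.54 to 3.37), and Cd55, which dissociates C3 convertases on the cell surface, was at 233 and 48.9, or 4.78-fold lower. Other higher regulators included Vtn, vitronectin (1.84 and 15.6), and Cd59a, which blocks the membrane attack complex (7.36 and 19.3). None of the 8 later components had 20 UMIs in fibroblasts of the libraries together, and of 10 receptors only C1qbp did, with no 2-fold difference. Neither these genes nor the lists below were counted within fibroblast subsets. Pi16-positive cells made up 308 of 717 wild-type and 358 of 1823 mutant fibroblasts, so class ratios also reflect subset shares.

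**Figure D5:**
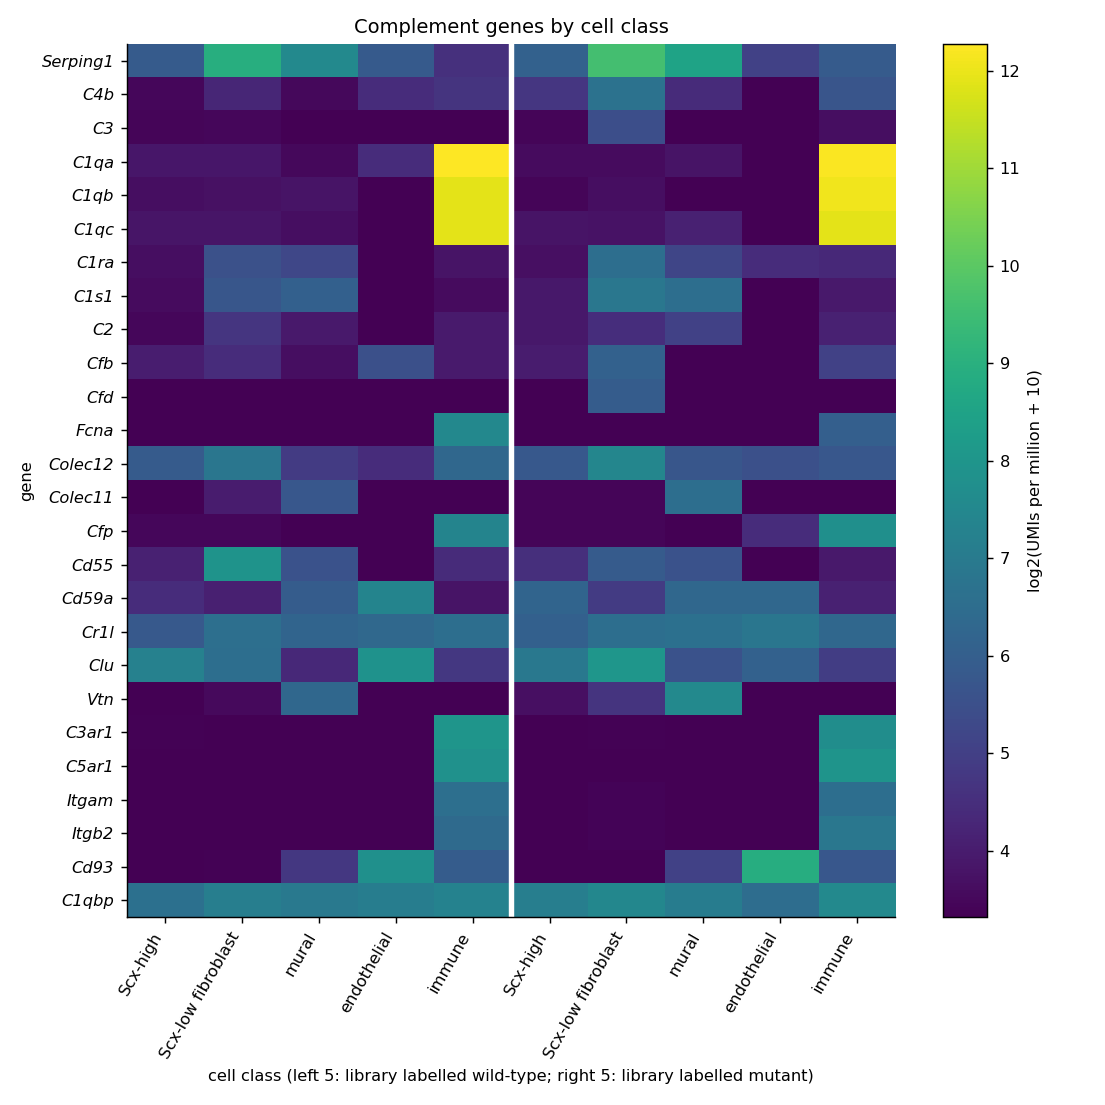
Levels of complement genes, as log2 of CPM plus 10 (colour), in 5 cell classes of the library labelled wild-type (left) and of the library labelled mutant (right). C1q genes and the receptors C3ar1 and C5ar1 are bright in immune cells of both libraries, while C4b, C3, Cfb and Cfd are brightest within the mutant library in fibroblasts.

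Of 58 other serpin genes, 9 had 20 or more UMIs in fibroblasts, none was at least 2-fold higher in the mutant library and 3 were at least 2-fold lower (median log2 ratio -0.54), beside 5.6% and 5.71% of all genes. The lower ones were Serpinb2 with 86 and 7 UMIs, Serpinb7 with 25 and 5 and Serpinb8 with 46 and 19. Serpinh1, the collagen chaperone of the endoplasmic reticulum, was at 3850 and 2621 CPM in Scx-high cells and at 2042 and 2151 in fibroblasts. In Scx-high cells 3 of 5 other serpins with 20 UMIs were at least 2-fold higher in the mutant, among them Serpinb1a (3.56 and 15.9 CPM) and Serpina3g (0 and 25 UMIs), beside 12.5% of all genes. Serpina3c was at 7.36 and 14.4 CPM in fibroblasts (20 and 82 UMIs). Serpina3c and Serpina3g are close relatives of Serpina3n and may share reads with it, so their counts are uncertain. Of 26 proteases that serpins act on or that act beside them, 8 had 20 or more UMIs in fibroblasts, with none at least 2-fold higher and Dpp4 lower (49.3 and 7.18). Of 9 receptors and cofactors 8 had 20 or more UMIs, with none higher and 3 lower, Procr, the protein C receptor (48.6 and 7.35), Plaur, the urokinase receptor (61.8 and 18.6, ratio 0.30, 0.23 to 0.39), and F3, tissue factor (48.2 and 16.8, ratio 0.35, 0.27 to 0.46).

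Acute-phase and cytokine-response genes were counted as a further list. Of 19 genes, 12 had 20 or more UMIs in fibroblasts, with 7 at least 2-fold higher and 1, Cebpb, at least 2-fold lower (24.3 and 8.41 CPM) in the mutant library (median log2 ratio 1.12, beside -0.03 for all genes, of which 5.6% were higher and 5.71% lower). Lcn2 was at 5.15 and 110 CPM (ratio 21.4, 12.7 to 39.5), Steap4, a metalloreductase, at 32.8 and 140 (4.27, 3.43 to 5.38), and Socs3, a feedback inhibitor of cytokine signaling, at 87.9 and 218 (2.48, 2.15 to 2.86). Hp, or haptoglobin, had 0 UMIs in wild-type and 334 in mutant fibroblasts (58.5 CPM). Outside fibroblasts, Hp had 0 and 17 UMIs in mural cells (65.1 CPM in the mutant), and Lcn2 0 and 37 in immune cells (96.3). In mural cells 2 of 6 listed genes with 20 or more UMIs were at least 2-fold higher and 0 lower, beside 8.35% and 5.68% of all genes. For immune cells 2 of 10 were higher and 1 lower, beside 6.52% and 5.18%. In Scx-high cells 2 of 8 such genes were at least 2-fold higher and 1 was lower, beside 12.5% and 8.23% of all genes, with a median log2 ratio of 0.15.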

How the data were processed

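Single cells were captured with 10x chemistry and sequenced by the study, and the deposited matrices hold raw counts (UMIs) per gene and cell made by the authors with Cell Ranger against mm10. The study's methods and the submitters' processing notes give different versions, the notes naming 1.2.0. Here all deposited barcodes were kept. Counts were summed per class and library and divided by the class total (Python 3.11.15, NumPy 2.4.6, SciPy 1.17.1). A cell took a marker class with 5 or more UMIs of at least 2 different markers and 3 times the next list. With 1 library per condition no test was run. Ratios have exact conditional 95% intervals, and a gene counted as higher at 2-fold or more, beside all genes with 20 or more UMIs in the 2 groups. A value at 0 was bounded with 3 UMIs. Genes other than the 6 were named by rank in a list (200 or more UMIs, up to 4 per direction) or in likeness, and others, such as C1q genes, Serpinh1 and those under 200 UMIs, after their values were seen. Counts over the lists include 2 genes that are not reported here. The 6 genes, the lists, the marker floor and the subsets were chosen with earlier results of these data known. The ratio intervals were run on simulated Poisson sums per class. These sums do not hold the clustering of UMIs in single cells, and the other steps were not simulated.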

Additional observations from a re-analysis of the deposited data

Results flagged for a closer look

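The mutant over wild-type ratio of Serpine2 differed between cell classes by more than counting error. It was 13.3 in Scx-high cells, 1.94 in Scx-low fibroblasts and 4.39 in mural cells, intervals that do not overlap, and 12.1 in immune cells from 1 and 9 UMIs. In endothelial cells it was 0.31, from 13 and 4 UMIs in 22 and 26 cells. The separation holds for whole classes only. Mural cells with a Myh11 UMI gave 2.32 (1.93 to 2.78), which overlaps the fibroblast interval of 1.75 to 2.16. The Scx-high ratio has a wild-type share no higher than that of haemoglobin-rich cells. The difference between classes was not tested, since each condition was 1 library.

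Serpinf1 gave opposite directions for fibroblasts over Scx-high cells in the libraries, at 0.62 (wild-type) and 1.11 (mutant), and the latter was 0.999 when centred on the median gene. This difference was not tested either.

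Cells that fell into no class were outside the comparisons. In the mutant library these 73 cells had Serpine2 at 744 UMIs per 1000000 (CPM), where 55 of 105 UMIs came from 1 cell, against 184 in the 36 such wild-type cells. They had C3 at 170 CPM, against no C3 UMI in the wild-type library. All 24 of these C3 UMIs were in 1 cell with 6009 UMIs in total, of which 328 were of the adipocyte marker list.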

How the results depend on the processing

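No paired analysis was possible because each condition was 1 library and the labels carry no replicate numbers. For the same reason no replicate could be left out. The counts of genes at least 2-fold higher in the 5 comparisons were recomputed under 16 settings. This gave 63 counts, of which 58 equalled the values reported, beside 3 left out because the setting changed no cell of the comparison. Fibroblasts of the libraries gave 4 rather than 3, through Serpine2, with Pi16-positive cells alone (3.15), with means over cells, with the top 1% of cells left out (2.40) and after thinning. Wild-type fibroblasts over Scx-high cells gave 3 of 4 genes rather than 4 of 6 with the top 1% left out, since Serpina3n and C3 then had no UMI in either class. Of 373 ratios of single genes under these settings, 330 stayed within the interval reported and 43 left it. No ratio of 2-fold or more crossed 1, but 5 ratios nearer to 1 did. They were Serpinf1 between fibroblasts of the libraries, from 0.986 to at most 1.01 in 3 settings, and, centred on the median gene, C3 (from 1.32 to 0.97) and Serpinf1 (from 1.11 to 0.999) for fibroblasts over Scx-high cells of the wild-type and the mutant library respectively. Leaving out the 1% of cells with the most UMIs moved C4b in fibroblasts to 16.9. It left no wild-type UMI of Serpina3n in fibroblasts or of Serpine2 in Scx-high cells, so their ratios became bounds against 3 UMIs, at least 75.2 and at least 38.2. Thinning moved the Scx-high ratio of Serpine2 to 40.1, from few wild-type UMIs, and it was 22.1 with the Scx boundary at 60 and 8.54 with a marker floor of 3. Averaged over cells, the Scx-high ratios of Serpina3n and C4b were 30.4 and 27.1. For fibroblasts over Scx-high cells of the mutant library, Serpine2 was 11.1 with a marker floor of 3 and C4b 10.2 without the top 1%. The share of all genes at least 2-fold higher in fibroblasts was 16.1% with 1 or more UMIs and 3.35% with 100 or more, and in Scx-high cells 19.2% and 8.66%. The alternatives on the marker floor, the adipocyte list, the top 1% of cells and the fibroblast subsets were added after the data had been seen. Scrublet called 0.423% of wild-type and 0.193% of mutant cells as doublets, too few to show that it worked, so doublets may remain. The depth does not resolve C3 in Scx-high cells or the sparse genes in mural, endothelial and immune cells. The cause of these shifts was not tested.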

Other observations

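These genes were picked with their values in view. In mutant fibroblasts Cxcl14, a chemokine, was at 1789 CPM in cells with a Serpina3n UMI and at 496 in those without (ratio 3.61, 3.40 to 3.83), and at 2296 and 645 in cells with and without C3. Pi16 was 2.01-fold (1.82 to 2.23) higher in cells with a C4b UMI and 1.05-fold (0.95 to 1.16) in cells with Serpine2. Among genes above a floor of cells, Rsrc1 had the highest ratio of shares in wild-type fibroblasts with over without Serpine2, at 18.5% and 8.49%. Here and in the next sentence cells were divided by Serpine2 at full depth, and only the other gene was counted after thinning. In mutant fibroblasts Serpina3n itself was present in 19.4% of the 581 cells with Serpine2 and in 7.89% of the 1077 without. Vtn, or vitronectin, a cofactor of serpins and a complement regulator, was highest in mural cells, the class with the highest Serpine2, at 69.4 and 176 CPM, wild-type and mutant respectively.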
